A study of Mus musculus with 4 samples.

Results

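The small leucine-rich proteoglycans were followed across spots of the embryonic mouse head as 10 genes, Dcn, Bgn, Lum, Fmod, Ogn, Omd, Kera, Epyc, Prelp and Aspn, chosen by symbol alone from the 19465 genes of the count matrices, and all 10 were found. Spatial RNA sequencing (Visium, formalin-fixed paraffin-embedded workflow) counts molecules, as unique molecular identifiers (UMIs), at fixed barcoded spots on a slide, and each spot takes RNA from several cells. The samples were wild-type C57BL/6J heads in coronal section at embryonic day 14.5 (E14.5) or 15.5 (E15.5), with no treatment in either stage. Each stage had 2 capture areas, one for replicate 1 with a single section and one for replicates 2, 3 and 4 with 3 sections. Which replicate each of those 3 sections is cannot be read from the labels, and the letters A, B and C stand for them here. The embryos are not named either, so the p-values below measure only the spread between capture areas.

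In all, 6357 tissue spots carried counts, with area totals from 15438992 UMIs for E14.5 replicate 1 to 109127953 UMIs for E14.5 replicates 2, 3 and 4. The median UMIs per spot by section ran from 6759 in the E14.5 replicate 1 section and 10037.5 in E14.5 section A to 65616 in E14.5 section C, so the rarer genes were measured least well in those first sections. The 4 areas shared 193 spot barcodes and 2170 barcodes occurred in more than one area, as fixed array positions do. The 10 genes together took 0.0936% and 0.0870% of UMIs at E14.5 and 0.0964% and 0.136% at E15.5, the replicate 1 area first each time. Levels are given as UMIs per 1000000 UMIs (CPM) of the spots named. In these mixed spots, fewer cells of a type and less RNA per cell cannot be told apart.

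Small leucine-rich proteoglycans are secreted matrix proteins built on leucine-rich repeats, most of which carry chondroitin, dermatan or keratan sulfate chains. They bind collagen fibrils and set their width and spacing, and several also bind growth factors of the TGF-beta family. Decorin (Dcn), biglycan (Bgn) and asporin (Aspn) form one class, lumican (Lum), fibromodulin (Fmod), keratocan (Kera), osteomodulin (Omd) and Prelp another, and epiphycan (Epyc) and osteoglycin (Ogn) a further one.

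Most of the genes lie in tight groups. In the GENCODE M21 annotation of GRCm38, the build of the counts (mm10), Dcn (chr10:97479609-97518143), Lum (chr10:97565128-97572703), Kera (chr10:97606879-97613692) and Epyc (chr10:97644068-97682454) follow one another on the plus strand with gaps of 47.0, 34.2 and 30.4 kb and no other coding gene between them. Aspn (chr13:49544443-49567565), Omd (chr13:49582462-49592822) and Ogn (chr13:49608046-49624501) do the same with gaps of 14.9 and 15.2 kb. Prelp (chr1:133910304-133921414, minus strand) and Fmod (chr1:134037254-134048277, plus strand) are 115.8 kb apart, and Bgn (chrX:73483602-73495933) stands alone.

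RefSeq promoter windows of GRCm38.p6, 250 bases before to 50 bases after a start, were at hand for 8 of the 10 genes. Those of Omd, the gene with the steepest rise in bone, and of Prelp and Epyc, which rose together in cartilage, are shown 5′ to 3′ on the gene's strand. Capitals mark, on either strand, TGTGGT (known to be read by RUNX factors), the SOX factor letters AACAAT as well as ACAAAG, and the TATA box letters TATAAA. The Omd window is chr13:49582212-49582511, the Prelp window chr1:133921352-133921651 on the minus strand, and the first of the Epyc windows chr10:97643818-97644117.
Omd: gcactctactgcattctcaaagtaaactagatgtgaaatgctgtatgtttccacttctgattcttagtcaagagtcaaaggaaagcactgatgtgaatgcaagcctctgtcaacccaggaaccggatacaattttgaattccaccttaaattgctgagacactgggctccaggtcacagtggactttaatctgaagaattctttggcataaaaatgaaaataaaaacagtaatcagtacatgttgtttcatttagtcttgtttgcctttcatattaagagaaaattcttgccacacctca
Prelp: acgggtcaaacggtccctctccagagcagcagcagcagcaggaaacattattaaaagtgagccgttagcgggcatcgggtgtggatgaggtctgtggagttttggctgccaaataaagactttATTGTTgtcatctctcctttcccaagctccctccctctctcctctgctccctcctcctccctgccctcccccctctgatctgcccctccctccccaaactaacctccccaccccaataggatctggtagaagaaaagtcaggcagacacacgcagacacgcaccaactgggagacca
Epyc: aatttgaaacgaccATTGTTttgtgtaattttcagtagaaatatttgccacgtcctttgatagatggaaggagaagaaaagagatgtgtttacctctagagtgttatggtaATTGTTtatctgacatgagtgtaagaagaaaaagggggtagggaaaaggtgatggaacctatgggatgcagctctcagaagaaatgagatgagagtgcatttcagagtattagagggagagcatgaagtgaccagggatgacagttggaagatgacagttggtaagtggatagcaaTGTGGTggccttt

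None of these letters occurred in the Omd window. The Prelp window held AACAAT on the other strand (ATTGTT) with its first base 127 bases before the start, and the Epyc window held it 236 and 139 bases before the start, with TGTGGT 37 bases after it. Over all 32851 windows of this length, 16.8% held TGTGGT, 10.7% AACAAT, 18.7% ACAAAG and 13.6% TATAAA on either strand, so single matches are frequent. Of the windows not shown, the other Epyc window and those of Kera, Ogn and Aspn also held AACAAT on either strand. ACAAAG occurred in that Epyc window and in that of Kera, TATAAA in those of Ogn and Aspn, and TGTGGT in that of Ogn. A match is a description of letters only.

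Regions were drawn without the 10 genes, as the 5% of spots of each section with the largest share of UMIs in a list of marker genes. Genes left out of the lists checked the names. Mmp13, a collagenase of late bone and cartilage cells, was higher in the bone region than in the other spots in 8 of 8 sections (median 14.8-fold), Comp, a cartilage matrix protein, in the cartilage region in 8 of 8 (median 16.3-fold), and the held-out genes of the skeletal muscle, epidermis and neuron regions likewise in 8 of 8. In the tendon region, Tnc and Fibin were higher in 8 of 8 sections and Col22a1 in 7 of 8. Of the genes held out from the list for palatal mesenchyme, Msx2 was higher in 6 of 8 sections (median 2.11-fold) and Meox2 in 4 of 8. Tbx22, scarce throughout, was higher in 0 of 8 (median 0-fold). These spots are therefore called the Osr2/Pax9-list region. The list for meninges is called the Foxc1/Aldh1a2-list region, since of its held-out genes Foxc2 was higher in 8 of 8 sections and Crabp2 in 7 of 8 but Wnt6 in only 2 of 8. The regions had 313 spots each and were not separate everywhere. The skeletal muscle and tendon regions shared 151 spots (48.2% of each), and a region of mural cell genes shared 145 spots with muscle and 112 with tendon. The epidermis region shared 113 spots (36.1%) with that of a dermis list, and the cartilage region shared 52 with that of an olfactory neuron list and 5 with bone.

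Each region was compared with the remaining spots of the same capture areas by edgeR's quasi-likelihood test with Benjamini-Hochberg adjustment over all genes, and a gene was called at an adjusted p under 0.1. Fold changes are on the log2 scale with their standard errors, and a region with 4 areas and a block for the area has few degrees of freedom. Many genes passed in such comparisons, so the share of all genes called stands beside each first count.

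**Figure D1:**
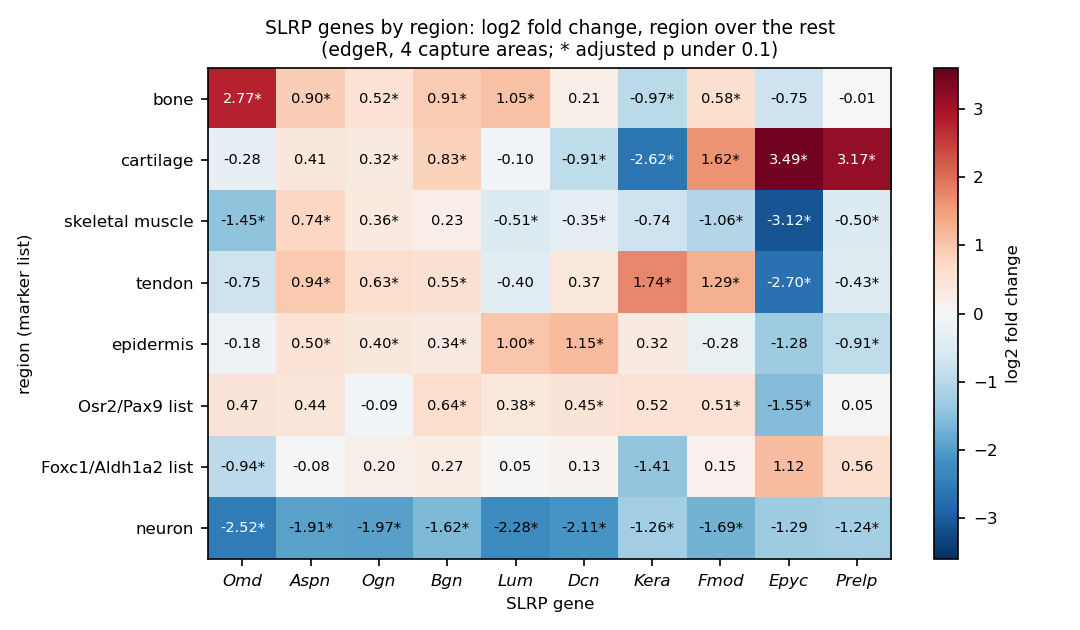
Log2 fold change of each gene (columns) in each of 8 regions (rows) over the other spots of the same areas, from edgeR with 4 capture areas, with colour and number giving the value and an asterisk an adjusted p under 0.1. Omd stands out in bone at 2.77, Epyc and Prelp in cartilage at 3.49 and 3.17, Kera in tendon at 1.74 and Dcn in epidermis at 1.15, while every value in the neuron region is below 0.

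In the bone region Omd, an osteoblast product also called osteoadherin, showed the steepest rise. Its level in the bone region was 38.0, 24.1, 25.9 and 21.6 CPM in the E14.5 sections (replicate 1, A, B and C, an order kept below) and 28.5, 64.5, 37.2 and 51.1 CPM in the E15.5 sections. In the other spots it was 4.69, 3.64, 4.17 and 3.56 CPM at E14.5 and 3.07, 17.0, 8.28 and 16.0 CPM at E15.5. The bone level was thus higher in 8 of 8 sections, by 3.19-fold to 9.29-fold (median 6.14), and even the highest level outside bone lay below the lowest level in bone. The fitted log2 fold change of Omd was 2.77 ± 0.21 (SE, n = 4 areas, edgeR adjusted p = 3.09e-05). The next region by median Omd level was the Osr2/Pax9-list region, at 8.91 CPM, and bone stood above it in 8 of 8 sections.

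Of the 10 genes, 6 rose in the bone region and 1 fell, where 49.2% of all 14025 genes tested were called. The median log2 fold change of the 10 was 0.55, beside -0.03 over all genes. Beside Omd, the fibril-binding Lum rose by 1.05 ± 0.14 (adjusted p = 0.000431) and Bgn, a proteoglycan of bone matrix, by 0.91 ± 0.11 (adjusted p = 0.000306) in edgeR. Aspn, which binds collagen and calcium through an aspartate-rich end, rose by 0.90 ± 0.19 (adjusted p = 0.00625), Fmod by 0.58 ± 0.19 (adjusted p = 0.0415) and Ogn by 0.52 ± 0.14 (adjusted p = 0.0182). Kera, a keratan sulfate proteoglycan of the cornea, fell by 0.97 ± 0.39 (adjusted p = 0.0778) on 14 UMIs in all bone spots. Dcn, Epyc and Prelp lay between -0.75 and 0.21 with no call. Without the E15.5 replicate 1 area Fmod had 0.37 (edgeR adjusted p = 0.182), and the Kera call was lost without either E14.5 area and without E15.5 replicate 1 (edgeR adjusted p from 0.113 to 0.341). With library sizes in place of TMM scaling, the median over all genes in bone shifted by -0.20, the share of calls that were higher went from 45.7% to 22.5%, and the Fmod and Ogn values of 0.38 and 0.32 were no longer called.

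The levels of Lum in the bone region were 680, 430, 549 and 514 CPM at E14.5 and 466, 614, 582 and 541 CPM at E15.5, against 248, 311, 258 and 267 CPM and 290, 423, 472 and 431 CPM in the other spots. Lum was higher in bone in 8 of 8 sections. For Bgn the bone levels of 638, 355, 249 and 156 CPM at E14.5 and 436, 424, 402 and 344 CPM at E15.5 varied more between the E14.5 sections than between bone and the rest. Aspn varied likewise, at 60.0, 15.6, 11.4 and 11.3 CPM in the E14.5 bone regions and 13.96, 34.3, 35.7 and 40.6 CPM in the E15.5 ones. Within each section, though, both Bgn and Aspn were higher in bone in 8 of 8.

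In the cartilage region Prelp and Epyc rose most. Prelp, a matrix protein of cartilage that binds heparan sulfate and collagen, had levels of 166, 188, 144 and 155 CPM in the E14.5 cartilage regions and 120, 129, 167 and 193 CPM in those of E15.5. In the other spots the Prelp level was 13.9, 19.97, 14.5 and 31.7 CPM at E14.5 and 12.3, 9.73, 20.4 and 26.5 CPM at E15.5. The ranges did not overlap and cartilage was 4.89-fold to 13.3-fold higher within a section (median 9.58, 8 of 8), with a log2 fold change of 3.17 ± 0.12 (SE, n = 4 areas, edgeR adjusted p = 3.83e-06).

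Epyc, a chondroitin or dermatan sulfate proteoglycan of the growth plate, was scarce but concentrated in the same spots. Its cartilage level was 31.7, 5.26, 6.94 and 4.14 CPM at E14.5, from 17, 3, 24 and 12 UMIs, and 6.97, 12.9, 29.9 and 7.97 CPM at E15.5, from 25, 24, 44 and 12 UMIs. Outside the region Epyc stood at 0.544 to 1.68 CPM at E14.5 and 0.691 to 2.72 CPM at E15.5, below every cartilage level. The log2 fold change of Epyc was 3.49 ± 0.22 (edgeR adjusted p = 7.35e-05). In all, 161 of its UMIs fell in the cartilage region and 4 in the tendon region, where it fell by 2.70 ± 0.58 (adjusted p = 0.00987).

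Of the 10 genes, 5 rose and 2 fell in cartilage, where 27.2% of all 14120 genes tested were called, and the median of the 10 was 0.37 beside -0.02 over all genes. Fmod, a keratan sulfate proteoglycan of tendon and cartilage, rose by 1.62 ± 0.13 (edgeR adjusted p = 0.000295), Bgn by 0.83 ± 0.14 (adjusted p = 0.00639) and Ogn by 0.32 ± 0.10 (adjusted p = 0.0572). Dcn fell by 0.91 ± 0.12 on the log2 scale (adjusted p = 0.00249) and Kera by 2.62 ± 0.48 (adjusted p = 0.00953). Kera had 0 UMIs in the cartilage region of 5 sections and 5 UMIs in all. Aspn, Lum and Omd had values of 0.41, -0.10 and -0.28 with no call. The Ogn call was lost without E14.5 replicates 2, 3 and 4 and without either E15.5 area (values of 0.21 to 0.39, edgeR adjusted p from 0.103 to 0.447).

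Dcn, the dermatan sulfate proteoglycan of skin and loose connective tissue, was even across the cartilage regions, at 164, 158, 167 and 168 CPM at E14.5 and 167, 156, 143 and 118 CPM at E15.5. The other spots had 233, 305, 274 and 365 CPM at E14.5 and 300, 325, 388 and 383 CPM at E15.5, so that cartilage lay lower in 8 of 8 sections and the ranges did not overlap. Fmod, by contrast, had 153, 116, 108 and 92.5 CPM in the E14.5 cartilage regions and 67.8, 132, 187 and 181 CPM in the E15.5 ones. It was higher there than in the rest of the section in 8 of 8 sections, at a median of 3.16-fold.

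**Figure D2:**
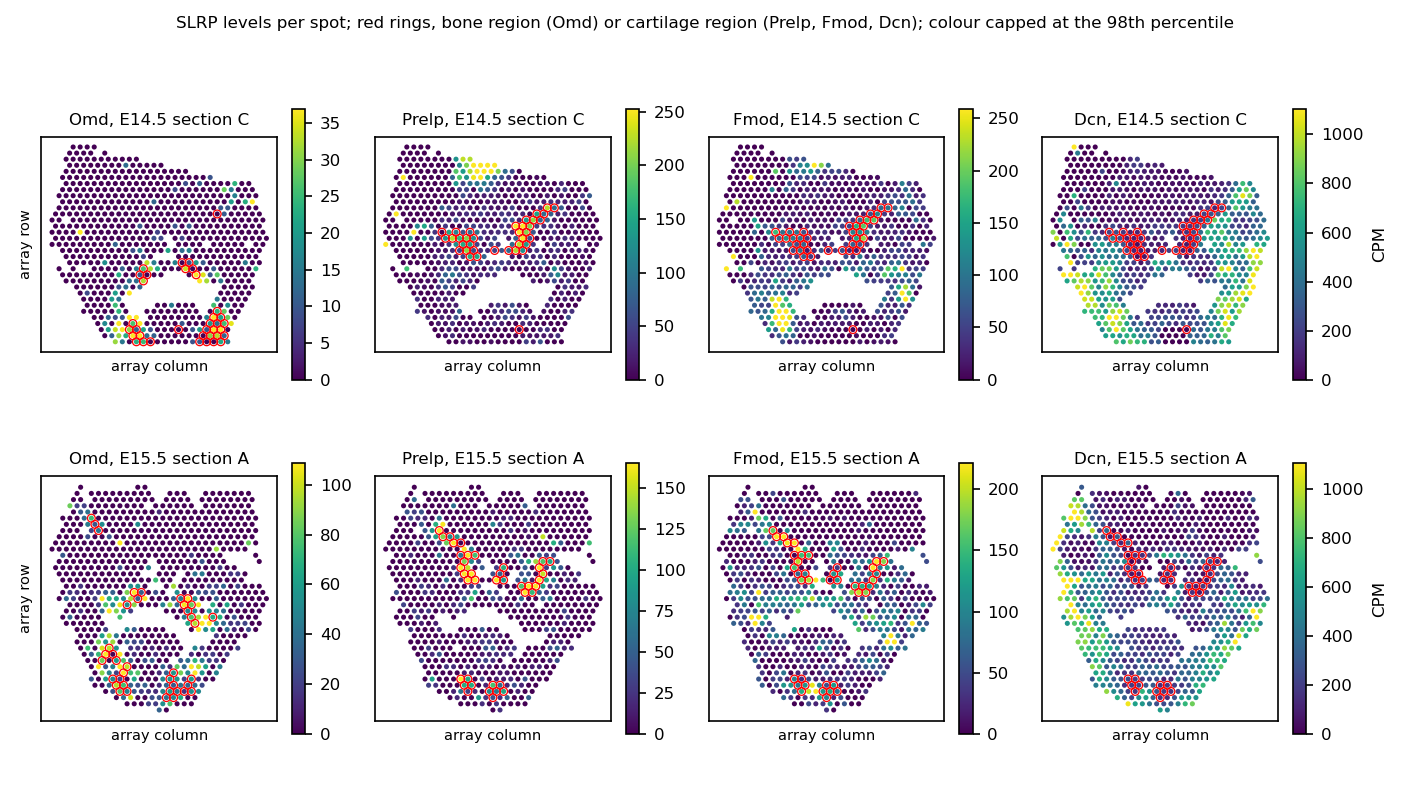
CPM per spot of Omd, Prelp, Fmod and Dcn (columns) on the spot grid of E14.5 section C (top) and E15.5 section A (bottom), with red rings on the bone region for Omd and on the cartilage region for the others, and colour capped at the upper end of each map. Omd is brightest in and beside the ringed bone spots, Prelp and Fmod in the ringed cartilage spots, and Dcn along the flanks of the section and dark in cartilage; Prelp has a further patch at the top of E14.5 section C, at 176 CPM in 37 spots rich in Ttr.

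Compared directly, the bone and cartilage regions separated 7 of the 9 genes that passed the filter on low counts (Kera did not), 4 higher in bone and 3 in cartilage, where 42.5% of all 12980 genes were called. Omd was higher in bone by 2.67 ± 0.18 (SE on the log2 scale, n = 4 areas, edgeR adjusted p = 6.35e-08), Dcn by 1.10 ± 0.08 (adjusted p = 8.95e-08), Lum by 1.06 ± 0.11 (adjusted p = 3.24e-06) and Aspn by 0.44 ± 0.15 (adjusted p = 0.0314). In the other direction the values were -2.75 ± 0.15 for Prelp (adjusted p = 8.36e-09), -3.50 ± 0.36 for Epyc (adjusted p = 4.19e-06) and -0.94 ± 0.18 for Fmod (adjusted p = 0.000848). Bgn at 0.10 ± 0.10 and Ogn at 0.14 ± 0.14 were not called. Without TMM scaling the median over all genes shifted by -0.18, the higher share of calls went from 49.2% to 24.9%, and Aspn was no longer called, nor was it without E14.5 replicates 2, 3 and 4 (edgeR adjusted p = 0.177) or E15.5 replicate 1 (edgeR adjusted p = 0.108).

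Distance from a region was counted in steps on the spot grid. Omd fell steadily away from bone, with section medians of 32.8 CPM in the region, 15.1 at 1 step, 7.35 at 2 steps, 5.23 at 3 steps and 1.03 at 9 or more, and was highest in the region itself in 8 of 8 sections. Its chromosome neighbours Aspn and Ogn were highest 1 step outside the bone spots in 6 of 8 sections each. The median Aspn level was 24.9 CPM in bone, 36.7 at 1 step and 19.0 at 2 steps, and the median Ogn level 86.4, 112 and 75.1 CPM. With the region widened to 10% of spots, Aspn was highest at 1 step in 5 sections and in the region in 3. Omd in turn was not tied to cartilage, where its median rose from 5.11 CPM in the region to 10.2 at 2 steps.

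Prelp dropped more sharply than Omd at the edge of its region, from a median of 160 CPM in cartilage to 41.8 at 1 step and 19.6 at 2 steps. Epyc fell from 7.47 to 3.48 and 1.21 CPM over the same steps, and both genes were highest in the region in 8 of 8 sections. Fmod fell from 124 to 56.5 and 35.1 CPM and Bgn from 388 to 294 and 274 CPM, each highest in cartilage in 7 of 8. Dcn went the other way, from 161 CPM in cartilage to 214 at 1 step, 268 at 2 steps and 388 at 6 to 8 steps.

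**Figure D3:**
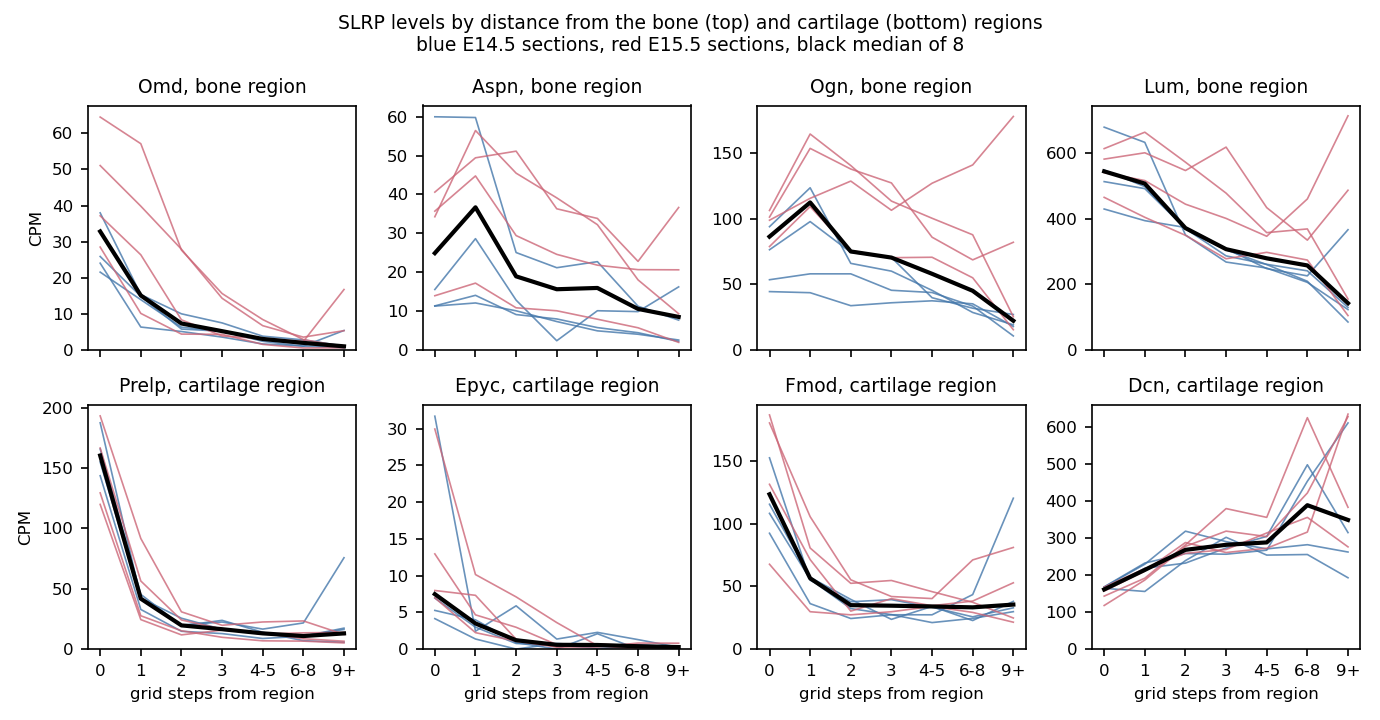
CPM (vertical axis, from 0) against grid steps from the bone region (top: Omd, Aspn, Ogn, Lum) or the cartilage region (bottom: Prelp, Epyc, Fmod, Dcn), with one thin line for each of 8 sections, blue for E14.5 and red for E15.5, and the median in black. The Omd median falls from 32.8 to 15.1 CPM over the first step, Aspn and Ogn peak at 1 step at 36.7 and 112 CPM, Prelp falls from 160 to 41.8 CPM and Dcn climbs away from cartilage.

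The tendon region was led by Kera and Fmod. Kera had levels of 9.86, 1.98, 2.99 and 9.03 CPM in the E14.5 tendon regions, from 2, 1, 11 and 28 UMIs, and 1.89, 8.20, 2.21 and 6.60 CPM in those of E15.5, from 9, 22, 4 and 11 UMIs. In the other spots Kera had 0.920, 1.49, 1.10 and 1.29 CPM at E14.5 and 0.576, 3.07, 3.79 and 2.99 CPM at E15.5. The tendon level was higher in 7 of 8 sections, and the ranges over sections overlapped. The log2 fold change of Kera was 1.74 ± 0.33 (SE, n = 4 areas, edgeR adjusted p = 0.00539) and no other region raised it to a call.

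Of the 10 genes, 5 rose and 2 fell in tendon, where 39.1% of all genes tested were called. Fmod rose by 1.29 ± 0.21 (edgeR adjusted p = 0.00251) but lay below the rest in E14.5 section A and E15.5 section B, at 7.92 and 27.1 CPM beside 73.5 to 148 CPM in the other 6 tendon regions. Aspn rose by 0.94 ± 0.19 (adjusted p = 0.00696), Ogn by 0.63 ± 0.16 (adjusted p = 0.0178) and Bgn by 0.55 ± 0.19 (adjusted p = 0.0644). Prelp fell by 0.43 ± 0.13 (adjusted p = 0.0433), with Epyc, above, the other to fall. Lum, Dcn and Omd had values of -0.40, 0.37 and -0.75 with no call. Bgn kept its call only with E15.5 replicates 2, 3 and 4 left out and Prelp only with E14.5 replicate 1 left out (edgeR adjusted p from 0.123 to 0.1703 in the other omissions) and the Ogn call was lost without E15.5 replicate 1 (edgeR adjusted p = 0.103). In tendon spots of no other region, which leaves out the muscle spots, all the genes called in tendon were still called by edgeR. Their log2 fold changes were 3.16 for Kera, 2.35 for Fmod, 1.03 for Aspn, 0.89 for Ogn, 0.63 for Bgn, -0.93 for Prelp and -2.23 for Epyc. Dcn was called there too at 1.06 (edgeR adjusted p = 0.00256). Without TMM scaling the median over all genes shifted by -0.12, the higher share of calls went from 44.3% to 28.4%, and 4 rose and 3 fell.

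In the skeletal muscle region 2 of the 10 genes rose and 6 fell, where 45.7% of all genes tested were called. Aspn rose by 0.74 ± 0.24 (edgeR adjusted p = 0.0432) and Ogn by 0.36 ± 0.15 (adjusted p = 0.0959). On the log2 scale Epyc fell by 3.12 ± 0.70 (adjusted p = 0.00838), Omd by 1.45 ± 0.26 (adjusted p = 0.00253), Fmod by 1.06 ± 0.16 (adjusted p = 0.00102), Lum by 0.51 ± 0.16 (adjusted p = 0.0370), Prelp by 0.50 ± 0.12 (adjusted p = 0.0140) and Dcn by 0.35 ± 0.14 (adjusted p = 0.0814). The Epyc value rests on 3 UMIs in all muscle spots, so its size is poorly known. When single areas were left out, Epyc, Omd and Fmod stayed called each time, whereas the call was lost for Prelp without E14.5 replicates 2, 3 and 4, for Aspn without E15.5 replicate 1, for Lum without either of these areas, for Dcn without any area but E14.5 replicate 1 and for Ogn without any but E15.5 replicates 2, 3 and 4 (edgeR adjusted p from 0.110 to 0.395). In muscle spots of no other region Aspn had 0.30 (edgeR adjusted p = 0.466), Ogn 0.21 (adjusted p = 0.403) and Dcn -0.12 (adjusted p = 0.595), none of them called, while the other 5 kept their call. Without TMM scaling the median over all genes shifted by -0.16, the higher share of calls went from 45.3% to 26.9%, and Ogn was no longer called. Fmod had 9.51 to 34.2 CPM in the muscle regions, a median of 0.451 times the rest, while its tendon level had a median of 2.44 times the rest.

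Dcn and Lum led the epidermis region, drawn from keratinocyte genes. Dcn levels there were 417, 542, 675 and 765 CPM at E14.5 and 611, 768, 756 and 580 CPM at E15.5, against 228, 287, 256 and 332 CPM and 278, 297, 356 and 364 CPM in the other spots. The ranges did not overlap, and epidermis was 1.60-fold to 2.64-fold higher within a section in 8 of 8. The log2 fold change was 1.15 ± 0.11 for Dcn (SE, n = 4 areas, edgeR adjusted p = 3.35e-05) and 0.997 ± 0.11 for Lum (adjusted p = 8.78e-05). Spots of a dermis list (Crabp1 and Dpt; a further listed gene, Twist2, was not analysed here) also held more Dcn than the rest in 8 of 8 sections (median 1.91-fold) and more Lum in 7 of 8 (median 1.57-fold). Of those dermis-list spots, 113 of 313 were the same as epidermis spots. In epidermis spots of no other region the log2 fold change was still 1.08 for Dcn and 0.92 for Lum, both called by edgeR. Fibrillar collagen genes were high in the epidermis region too, with 6 of 10 higher and 3 lower. Of all genes, 22.4% were higher and 22.2% lower there. Which cells of these mixed spots held Dcn and Lum was not tested.

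With distance from the epidermis, Dcn had medians of 643 CPM in the region, 693 at 1 step, 539 at 2 steps and 165 at 9 or more, and was highest in the region in 4 sections and at 1 step in the other 4. Ogn was highest at 1 step in 7 of 8 sections, with a median of 120 CPM beside 86.4 in the region. Kera had medians of 1.38 CPM in the region, 4.91 at 2 steps and 0.428 at 9 or more. In the epidermis region as a whole 5 of the 10 genes rose and 1 fell, where 44.6% of all genes tested were called. The others that rose were Aspn by 0.50 ± 0.18 (edgeR adjusted p = 0.0546), Ogn by 0.40 ± 0.13 (adjusted p = 0.0304) and Bgn by 0.34 ± 0.13 (adjusted p = 0.0710), and Prelp fell by 0.91 ± 0.24 (adjusted p = 0.0126). Dcn and Lum stayed called without any 1 area. The other 4 were not called without E14.5 replicates 2, 3 and 4, with edgeR adjusted p from 0.128 for Prelp to 0.412 for Bgn. Ogn and Bgn were not called without E15.5 replicate 1 either, nor Bgn without E14.5 replicate 1.

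In the Osr2/Pax9-list region the changes were smaller. Bgn rose by 0.64 ± 0.09 (edgeR adjusted p = 0.00295), Fmod by 0.51 ± 0.14 (adjusted p = 0.0424), Dcn by 0.45 ± 0.13 (adjusted p = 0.0433) and Lum by 0.38 ± 0.09 (adjusted p = 0.0174). Epyc fell by 1.55 ± 0.47 (edgeR adjusted p = 0.0519) on 7 UMIs in all spots of the region. These were 5 of the 10 genes, where 28.5% of all genes tested were called. Only Bgn among these stayed called without E14.5 replicates 2, 3 and 4, where the other 4 had edgeR adjusted p from 0.122 to 0.249. Dcn was also lost without E14.5 replicate 1, Fmod without E15.5 replicate 1 and Epyc without E15.5 replicates 2, 3 and 4. In the Foxc1/Aldh1a2-list region 1 of the 10 genes was called, where 9.98% of all genes were (6.21% higher and 3.77% lower), and that was Omd, which fell by 0.94 ± 0.24 (adjusted p = 0.0772) and was called in turn only with E14.5 replicate 1 left out, not with any other area left out (edgeR adjusted p from 0.178 to 0.300).

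The neuron region was the lowest for most of the genes. Of the 10, 9 fell there and none rose, where 66.9% of all genes tested were called (31.1% higher and 35.7% lower), with log2 values from -1.24 for Prelp to -2.52 for Omd. Epyc, at -1.29 ± 0.68, was not called, and Epyc and Kera had only 9 UMIs each in all neuron spots. Without E14.5 replicates 2, 3 and 4, Kera and Prelp were not called either (edgeR adjusted p = 0.119 and 0.1301), and Prelp was not without E14.5 replicate 1 (edgeR adjusted p = 0.129). The Dcn level in the neuron region was 34.7 to 74.2 CPM in 5 sections, 20.3 CPM in E15.5 section A, 33.4 CPM in E15.5 section B and 200 CPM in E15.5 section C. That last section stood apart for other members too, with 361 CPM of Bgn and 357 CPM of Lum where the 7 other sections had at most 111 and 60.1 CPM. Its held-out neuron genes were higher in the region all the same.

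Ordered by median level over the 8 regions, Dcn ran from epidermis (643 CPM) through the Osr2/Pax9-list region (439 CPM), the Foxc1/Aldh1a2-list region (334 CPM), tendon (286 CPM), bone (281 CPM), muscle (206 CPM) and cartilage (161 CPM) to neuron (66.0 CPM). The first stood above the second in 8 of 8 sections, whereas the Foxc1/Aldh1a2-list region against tendon and tendon against bone held in only 4 of 8. Bgn had no leading region, since its first 3, the Osr2/Pax9-list region, cartilage and bone at 396, 388 and 378 CPM, followed each other in 5 of 8 sections. The first 4 regions of Ogn, tendon, epidermis, bone and cartilage, lay between 75.9 and 94.5 CPM and followed each other in 4 of 8 sections. Aspn was likewise spread, with medians of 30.4 to 21.1 CPM over its first 5 regions.

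Kera was also followed around the lens, since keratocan is best known from the cornea that overlies it. Spots with at least 1% of UMIs in lens crystallin genes and Mip numbered 46 and 40 in E14.5 sections B and C, 86 and 21 in E15.5 sections A and B and 19 in the replicate 1 section of E15.5, with 2 or fewer elsewhere. Kera in those spots was 4.62 CPM (14 UMIs) in E14.5 section B, 6.74 CPM (13 UMIs) in E14.5 section C, 7.87 CPM (27 UMIs) in E15.5 section A and 4.60 CPM (4 UMIs) in E15.5 section B. At 9 or more steps the Kera levels of the same sections were 0.842, 1.62, 2.62 and 3.61 CPM. The E15.5 replicate 1 section had 0 Kera UMIs in its 19 lens spots. E15.5 section A had a further high band of 6.92 CPM at 6 to 8 steps. These Kera values were not tested.

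Between the stages, Ogn, a keratan sulfate proteoglycan first purified from bone, differed most. Whole-section Ogn was 45.4, 53.8, 39.0 and 33.9 CPM at E14.5 and 67.5, 104, 102 and 125 CPM at E15.5, so every E15.5 section was above every E14.5 section. By capture area, with TMM scaling, Ogn was 45.2 and 40.3 CPM at E14.5 and 66.4 and 108 CPM at E15.5. The share of all genes whose areas separate by stage in this way was not counted. The Ogn log2 difference, E15.5 minus E14.5, was 1.03 ± 0.29 (SE, n = 2 areas a stage) with an edgeR adjusted p of 0.769. No gene among the 15609 tested was called by edgeR (0%), with 930 at an unadjusted p under 0.05, Ogn the single one of the 10 members among them, and 28 genes called by DESeq2.

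For Omd, Kera and Aspn the E15.5 areas differed among themselves by more than the stages did. Omd had 5.77, 5.20, 5.49 and 4.77 CPM in the E14.5 sections and 4.37, 19.9, 9.86 and 17.8 CPM in the E15.5 ones, low in the replicate 1 section. Kera, at 1.04, 1.52, 1.23 and 1.84 CPM and then 0.669, 3.49, 3.67 and 3.20 CPM, had the same low E15.5 section, as had Aspn at 20.2, 13.8, 6.65 and 6.13 CPM and then 8.93, 32.6, 26.4 and 38.0 CPM. The area of replicates 2, 3 and 4 held 3.61 times the Omd, 5.27 times the Kera and 3.61 times the Aspn level of the replicate 1 area at E15.5. At E14.5 the same ratio was 0.948 for Omd, 1.525 for Kera and 0.366 for Aspn. The log2 stage differences were 0.83 ± 0.56 for Omd, 0.66 ± 0.73 for Kera, 0.57 ± 0.64 for Aspn and 0.39 ± 0.29 for Lum, and the other 5 lay between -0.24 and 0.21. Without the E15.5 area of replicates 2, 3 and 4, which leaves 1 area at E15.5, the Omd and Aspn values were -0.36 and -0.63.

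**Figure D4:**
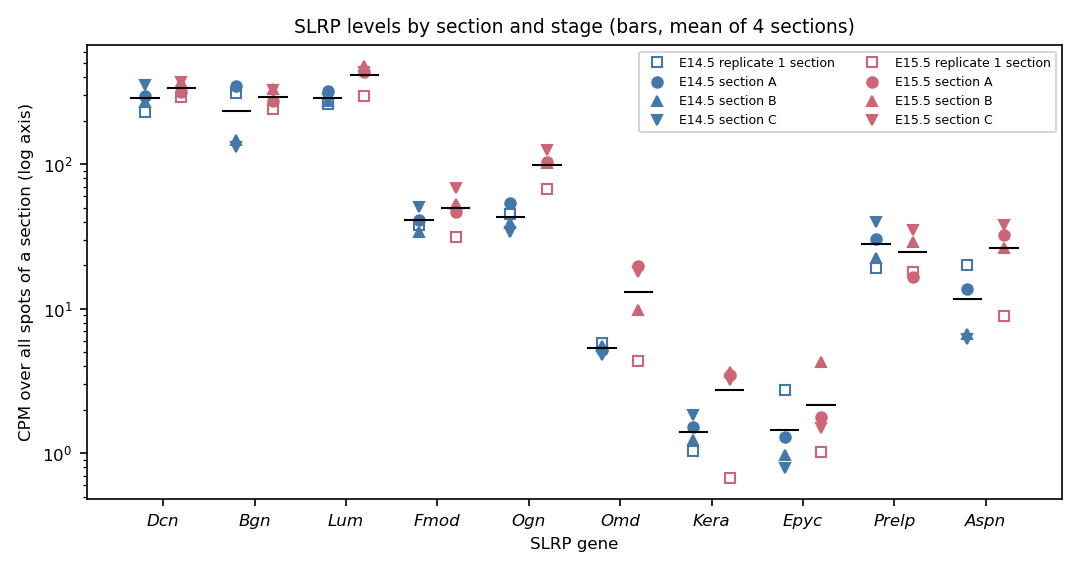
Whole-section CPM (log axis) of each gene in the 8 sections, blue for E14.5 and red for E15.5, open squares for the replicate 1 sections, with a bar at the mean of the 4 sections of a stage. The E15.5 points of Ogn (67.5 to 125 CPM) all lie above its E14.5 points (33.9 to 53.8 CPM), and the E15.5 replicate 1 section is the lowest E15.5 point for Omd, Kera and Aspn.

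Within the bone region no member was called between stages (0 of 8 tested, with 0% of 12272 genes called, 171 at an unadjusted p under 0.05 and 5 by DESeq2). The bone Omd difference was 0.53 ± 0.38 and that of Ogn 0.42 ± 0.33 on the log2 scale in edgeR. In the Osr2/Pax9-list region 0 of 8 were called as well (0% of 12419 genes, 285 at an unadjusted p under 0.05 and 2 by DESeq2), with Ogn at 0.64 ± 0.34. Whether the step from the rest into bone changed with stage was tested as an interaction, in which edgeR called 0 of the 10 members and 1.65% of all genes (1481 at an unadjusted p under 0.05, 121 by DESeq2). The 4 members with an unadjusted p under 0.05 had interaction values of -0.60 ± 0.18 for Lum (adjusted p = 0.1697), -0.57 ± 0.20 for Ogn (adjusted p = 0.268), -0.68 ± 0.29 for Aspn (adjusted p = 0.409) and -0.45 ± 0.19 for Dcn (adjusted p = 0.382). In each, bone relative to the rest was lower at E15.5 than at E14.5. The bone region is a fixed share of spots. The bone list itself had 381 to 929 CPM in the other spots of the E14.5 sections and 679 to 2022 CPM in those of E15.5. Whether this bears on the interaction values was not tested. Dcn in the E15.5 bone regions was at 238.3 to 302.5 CPM, beside 293.2 to 373.7 CPM over whole sections. In the E15.5 replicate 1 area bone lay slightly above all spots, at 302.51 beside 293.24 CPM. In the E15.5 area of replicates 2, 3 and 4 it lay below, at 255.14 beside 355.5 CPM. For cartilage the interaction called 0 members and 0% of genes (598 at an unadjusted p under 0.05, 1 by DESeq2).

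Leaving out 1 area changed these counts, in fits where the lone remaining area of a stage is assumed to vary like the others. Without E14.5 replicates 2, 3 and 4, edgeR called Lum at -0.80 (adjusted p = 0.0590) and Prelp at -1.52 (adjusted p = 0.0684) for bone, and Bgn at -0.77 (adjusted p = 0.0187) and Aspn at -1.28 (adjusted p = 0.0548) for cartilage. Without E14.5 replicate 1, Prelp was called for bone with the other sign, at 0.77 (adjusted p = 0.0695).

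Over the spots of a section, the members fell into a group that went together and others that did not. Pearson's r was computed on log2(1 + UMIs scaled to 10000 per spot) and is given as the median of 8 sections with its range, as a description, since spots of a section share a library and differ in depth. Dcn and Lum, neighbours on chromosome 10, had a median r of 0.741 (0.366 to 0.808), Bgn and Lum 0.590 (0.167 to 0.748) and Dcn and Bgn 0.507 (0.00149 to 0.670). Further along the same cluster Lum and Kera had 0.136 (0.0533 to 0.231) and the sparse Kera and Epyc -0.0368 (-0.0517 to 0.319). On chromosome 13 Aspn and Omd had 0.163 (-0.0142 to 0.358), Omd and Ogn 0.154 (-0.045 to 0.302) and Aspn and Ogn 0.263 (0.0766 to 0.497). On chromosome 1 Fmod and Prelp had 0.330 (0.182 to 0.429). By median, the adjacent pairs thus ran from the highest r of any pair, Dcn and Lum, to one just below 0, Kera and Epyc.

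**Figure D5:**
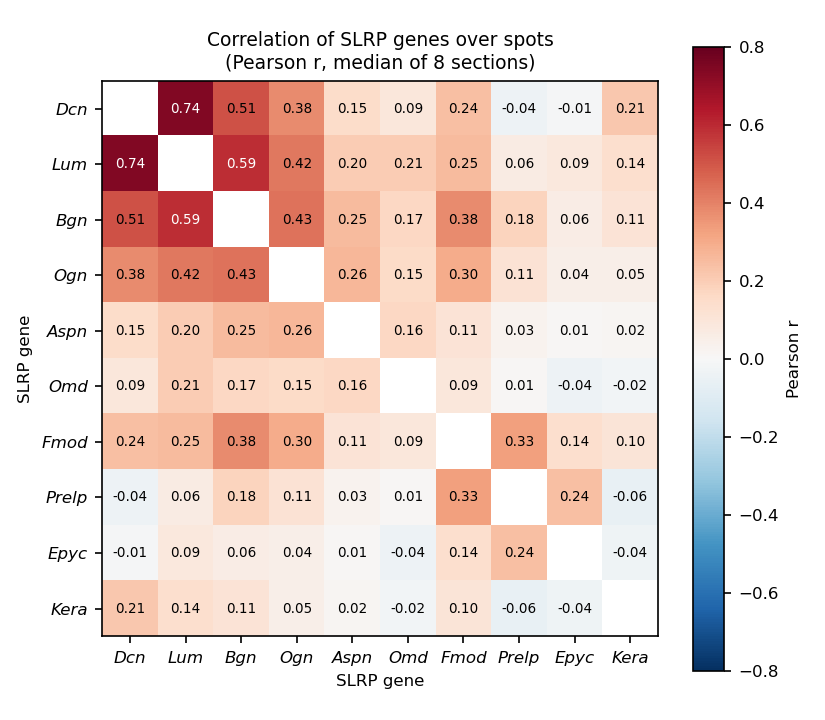
Pearson's r over spots for each pair of the 10 genes, as the median of 8 sections, with the value in each cell and red for positive r. Dcn, Lum, Bgn and Ogn form a block with values from 0.38 to 0.74, and Prelp has its highest values with Fmod (0.33) and Epyc (0.24).

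Among 12152 genes with at least 1000 UMIs, those most like each member by mean r over the 8 sections were named by a fixed rule of 3 per member. For Dcn they were Col3a1 (0.691), Col5a1 (0.645) and Col6a1 (0.630), collagens of fibrils and their surroundings, and for Lum Col5a1 (0.664), Col5a2 (0.661) and Col3a1 (0.648). For Bgn they were Serpinh1 (0.656), a collagen chaperone, Rcn3 (0.594) and Mmp2 (0.590). Those of Omd were Alpl (0.485), Sp7 (0.480) and Ibsp (0.464), all on the bone list, and those of Prelp Matn1 (0.591), Cnmd (0.588) and Acan (0.579), of which Matn1 and Acan are on the cartilage list. Epyc had Matn1 (0.295), Susd5 (0.294) and Cnmd (0.294), Fmod had Thbs1 (0.417), Col11a1 (0.412) and Mgp (0.407), and Ogn had Sfrp2 (0.487), Prrx1 (0.481) and Fn1 (0.472). For the sparse Kera the values were low, at 0.202 for Col14a1, 0.196 for Dkk2 and 0.185 for Tnmd, a tendon-list gene, and for Aspn 0.325 for Lmna, 0.300 for Thbs2 and 0.295 for Prrx1.

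Prelp was also high in some spots drawn by other genes. In the region of the olfactory neuron list, Prelp was above the rest in 6 of 8 sections (median 2.32-fold), with levels from 17.6 to 79.9 CPM. That region shared 52 of its 313 spots with cartilage. Its Prelp level without those spots was not taken, so a rise there outside cartilage is not shown. In spots with at least 1% of UMIs from Ttr, the transthyretin gene known for its expression in choroid plexus epithelium, Prelp was 63.8 CPM in 17 spots of E14.5 section B, 176 CPM in 37 spots of E14.5 section C and 78.7 CPM in 10 spots of E15.5 section C. The remaining spots outside cartilage had 13.3, 19.3 and 25.7 CPM of Prelp in those sections, so the level in Ttr-rich spots was higher in 3 of 3, and in E14.5 section C it was as high as in cartilage (155 CPM). None of these spots lay in the cartilage region, and Acan, the main cartilage proteoglycan gene, was at 1.60, 0.932 and 14.8 CPM there, below the level of the remaining spots in 3 of 3. The other 5 sections had 0 such spots. This set was drawn after the Prelp maps had been seen, and no test was made on it.

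Genes that act on these proteoglycans were taken as lists, and their counts stand beside the shares of all genes called, 22.5% higher and 26.7% lower in bone and 13.2% higher and 14% lower in cartilage. Among other leucine-rich proteoglycans of the family, 3 of the 7 tested rose and 3 fell in bone, with Podnl1 at 3.28 ± 0.17 (edgeR adjusted p = 6.80e-06) and Chad at 0.999 ± 0.13. In cartilage 3 of 7 rose and 1 fell, with chondroadherin (Chad) at 3.64 ± 0.09 (adjusted p = 9.18e-07) and its relative Chadl at 3.46 ± 0.11. Chad thus rose in both regions, though it was lower in bone than in cartilage by 2.04 ± 0.11 (adjusted p = 7.31e-09), while the opticin gene Optc, the next coding gene beyond Prelp, fell in both.

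Of the enzymes that start a glycosaminoglycan chain on its core protein, 5 of 7 rose in bone and 3 of 7 in cartilage and none fell. Xylt1, which adds the first xylose, rose in cartilage by 2.07 ± 0.09 and was not called in bone, and was lower in bone than in cartilage by 1.82 ± 0.10 (edgeR adjusted p = 6.45e-09). Of the enzymes that extend and sulfate chondroitin and dermatan sulfate, 12 of 16 rose and 1 fell in bone and 9 of 16 rose and 1 fell in cartilage. Chst13 rose most in bone, by 3.54 ± 0.27 and by 2.76 ± 0.19 over cartilage, and Chst11 in cartilage, by 2.09 ± 0.16. Of the keratan sulfate enzymes 1 of 5 rose and 1 fell in each region, B3gnt7 up in bone and B4galt4 up in cartilage. Tpst2, one of the tyrosylprotein sulfotransferases that act on Fmod, Lum and Omd, rose by 0.84 ± 0.08 in bone and 0.29 ± 0.08 in cartilage.

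The proteases that cut the propeptide of biglycan and of procollagens, with their enhancers, rose in 3 of 5 in bone and 2 of 5 in cartilage, with Tll2 falling in both. Pcolce rose by 2.11 ± 0.12 and Bmp1 by 1.19 ± 0.08 in bone, and Pcolce2 by 2.03 in each region. Of the fibrillar collagen genes 7 of the 10 tested rose in bone, led by Col1a1 at 2.78 ± 0.14 and Col1a2 at 2.68 ± 0.14, and 4 of 10 rose and 2 fell in cartilage, where Col2a1 belongs to the list that drew the region. The fibril-associated collagens rose in 5 of 5 in cartilage, with Col9a1, Col9a2 and Col9a3 again on that list, and 1 of 5 rose and 2 fell in bone. Of the 3 TGF-beta ligands, 2 rose and 1 fell in bone, and 2 rose and 0 fell in cartilage, where 1 rose without TMM scaling. Tgfb1 rose in bone by 2.35 ± 0.11 and Tgfb3 in both regions, by 0.83 ± 0.15 and 0.85 ± 0.10, while Tgfb2 was the ligand that fell in bone. Without TMM scaling the bone counts were 3 higher and 1 lower of the 7 chain-starting enzymes, 9 and 1 of the 16 chondroitin and dermatan sulfate enzymes, 1 and 3 of the 5 keratan sulfate enzymes and 1 and 3 of the 5 fibril-associated collagens. In cartilage the counts of these 4 lists were the same without it. No gene of these lists was called between the stages in whole tissue, in bone or in the Osr2/Pax9-list region.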

How the data were processed

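Spots of 4 capture areas (2 at E14.5, 2 at E15.5) were analysed from the deposited UMI counts per gene and barcode, raw as the authors deposited them. Per the file headers, version 1.3.1 of Space Ranger wrote the areas of replicate 1 and version 2.0.0 those of replicates 2, 3 and 4, so version and number of sections go with the replicate and not with the stage. The submitters' processing notes name mm10. Of the tissue positions, 12 had no counts. The 10 genes and all marker and pathway lists were chosen with earlier results of these data known. Spots on tissue were split into 8 sections by array position (88 spots fell in none), and regions were the top 5% of spots by list share. Counts were summed per area, or per region and area, and tested with edgeR 4.0.16 (R 4.3.3, TMM, filterByExpr, quasi-likelihood, Benjamini-Hochberg at 0.1, the rate in the study's methods), with the area as a block for regions, and the fits were tested on simulated data, where somewhat more of the calls were false than the nominal rate allows and most of the smaller stage changes were missed. Alternatives were DESeq2 1.42.0, no TMM, no filter, thinned counts, other region sizes, non-overlapping regions, sections as samples (also with limma 3.58.1), a replicate block, a 0.05 threshold and leaving out areas. Depth ran from 15438992 to 109127953 UMIs per area, and low-count values carry counting error accordingly. Named genes were the members, with those past the threshold given by value, the 3 likest genes per member, and pathway genes past the threshold. Doublets were not called, since spots are not cells. Correlations used log2(1 + UMIs scaled to 10000) per spot. Python 3.11.15 was used for sums and maps.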

Additional observations from a re-analysis of the deposited data

Results flagged for a closer look

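Kera in the E15.5 replicate 1 section, at 0.669 CPM over the whole section, lay far below the other 3 E15.5 sections, at 3.20 to 3.67 CPM, with a gap to the next of 0.841 of the group's range, beyond Dixon's limit for 4 values. It was the only one of 20 groups of sections tested to stand out, and chance alone gives about 1 in 20. The section had 45 Kera UMIs, 64084 UMIs in its median spot and 0 Kera UMIs in its 19 lens spots.

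Aspn in the Foxc1/Aldh1a2-list region was above the rest of the section in every E14.5 section (median 1.36-fold) and below it in every E15.5 section (0.389-fold to 0.964-fold). The difference between stages was not tested.

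Barcodes off the tissue held UMIs of the members, 125 UMIs in the E14.5 area of replicates 2, 3 and 4 and 457 in the E15.5 area of replicates 2, 3 and 4, from 8 and 11 barcodes with 209555 and 352936 UMIs in all. They entered no comparison.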

How the results depend on the processing

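Over 15 alternative settings, 837 values were recomputed for the 57 member calls: 735 kept direction and call, 100 kept direction and lost the call, and 2 turned. In all, 33 calls stayed past the threshold in every setting run. The values that turned were, in muscle, Dcn at 0.0889 with regions of 10% of spots and Ogn at -0.0517 with thinned counts. Among uncalled values, the whole-tissue stage differences of Omd and Aspn were -0.36 and -0.63 without E15.5 replicates 2, 3 and 4, the bone stage difference of Omd was -0.0723 without that area and -0.0388 with thinned counts, and Prelp in the Foxc1/Aldh1a2-list region was -0.40 with regions of 2% of spots. The number of members called changed by more than 1.5 times as follows, and the cause was not tested except that thinned counts leave fewer genes and UMIs to test. With thinned counts 4 members were called in cartilage, 3 in muscle, 2 in tendon, 2 in epidermis, 3 in the Osr2/Pax9-list region and 0 in the Foxc1/Aldh1a2-list region. With 2% regions the counts were 3 in epidermis, 3 in the Osr2/Pax9-list region, 0 in the Foxc1/Aldh1a2-list region and 1 for the stage by bone interaction, which was also 1 with no filter. In the Foxc1/Aldh1a2-list region there were 0 at an adjusted p under 0.05, 3 with sections as samples, 4 with 10% regions and 0 with spots of no other region, and muscle had 5 with spots of no other region. Leaving out 1 area gave 4 to 8 members in muscle, where 8 were called with all areas and 7 without E14.5 replicate 1, 1 to 6 in the Osr2/Pax9-list region, 0 to 1 in the Foxc1/Aldh1a2-list region, 0 to 2 for the stage by bone interaction and 0 to 2 for the stage by cartilage interaction. With the replicate block 0 members were called between stages in whole tissue, bone and the Osr2/Pax9-list region; deviations of same-numbered areas correlated at r = 0.201 over 13927 genes. These are 2 pairs only, and same-numbered areas also share the Space Ranger version and the number of sections, so pairing by the number is not established. The settings added after the data were seen (spots with at least 1000 UMIs, sums without the shallow E14.5 section A, lens rings in sections with at least 10 lens spots) changed no count of members called by that much, though with at least 1000 UMIs Ogn in muscle and Bgn in epidermis lost their call. Depth limits the sparse Kera and Epyc most, above all in the shallow E14.5 replicate 1 area.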
